A study of Arabidopsis thaliana with 12 samples.

Results

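AT5G47030 and AT4G31930 are 2 nuclear Arabidopsis genes for mitochondrial proteins, a subunit of the ATP synthase and a member of the mitochondrial glycoprotein family. They were chosen by their measured differences between the prors2 mutant and wild type (WT) in these same samples, which were known to run in opposite directions, so those differences are given below as a description, with no test. Each is measured by 1 feature that the platform's gene table ties to that gene alone, among 692 such features of 3439 on the array. Total RNA was measured on one-channel arrays in 6 prors2 and 6 WT samples, both of ecotype Columbia 0, with replicate numbers 1 to 6 in each genotype. The labels say that prors2 lacks the prolyl-tRNA synthetase, which joins proline to its tRNA for protein synthesis. The sources used here do not say what tissue was taken, how old the plants were or how they were grown. Nor do the labels say that samples were separate plants, so errors and p-values cover the spread between these samples alone, which may be technical. In such bulk RNA, fewer cells of a type and less RNA per cell cannot be told apart.

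The mitochondrial ATP synthase is a rotary machine of the inner membrane. Protons flowing back through its membrane part turn a central stalk, and the catalytic head in the matrix makes ATP. Plants split its subunits between genomes: some are made inside the organelle from mitochondrial genes, and others, AT5G47030 among them, are nuclear-encoded and imported. Proteins of the mitochondrial glycoprotein family are small acidic proteins of the matrix, related to MAM33 of yeast and p32 (C1QBP) of humans, both of which have been tied to protein synthesis in mitochondria.

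The arrays of the 2 genotypes differed as a whole, and this sets how every value below is read. The deposited relative intensities run up to 100, and the sources used here do not name what they were divided by. The median feature stood between 0.279 and 0.305 on prors2 arrays, and between 0.135 and 0.169 on WT arrays. A prors2 array had 262 to 316 features listed at 0, and a WT array 368 to 396. Over the 3024 features tested, the median log2 difference (prors2 minus WT) was 0.76 on the deposited values, 0.69 with arrays scaled to equal sums, 0.07 after quantile normalization and -0.06 after centring each array on its median. Where no scaling is named, sizes are those of the quantile-normalized values. No feature of the platform table, alone or with other genes, was tied to the prolyl-tRNA synthetase loci AT5G52520 and AT3G62120 (0 each), so the transcript of the mutated gene is not analysed here.

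AT5G47030, the ATP synthase subunit, was lower in prors2 relative to the other features of each array, but its raw intensities overlapped between genotypes. Its deposited intensities were 0.193, 0.0924, 0.220, 0.0614, 0.0905 and 0.0369 in prors2 replicates 1 to 6. In WT replicates 1 to 6 they were 0.212, 0.170, 0.185, 0.162, 0.145 and 0.111. No sample of either genotype was at 0. Of the 6 prors2 samples, 4 lay below every WT sample, replicate 1 lay inside the WT range and replicate 3 lay above it. The means were 0.116 ± 0.0738 in prors2 and 0.164 ± 0.0344 in WT (SD, n = 6 each).

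AT4G31930, of the glycoprotein family, was several times brighter in every prors2 sample than in any WT sample. Its deposited intensities were 0.967, 0.771, 0.899, 0.637, 0.710 and 0.718 in prors2 replicates 1 to 6. In WT replicates 1 to 6 they were 0.116, 0.0744, 0.0974, 0.0991, 0.0739 and 0.0550. The groups did not overlap, and no sample was at 0. The means were 0.784 ± 0.125 in prors2 and 0.0860 ± 0.0221 in WT (SD, n = 6 each), a ratio of 9.11 on the deposited scale. Since prors2 arrays were brighter at the median feature, part of that ratio is shared with the array: in 39.9% of the 2654 features above 0 in all samples, every deposited prors2 value lay above every WT value.

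**Figure D1:**
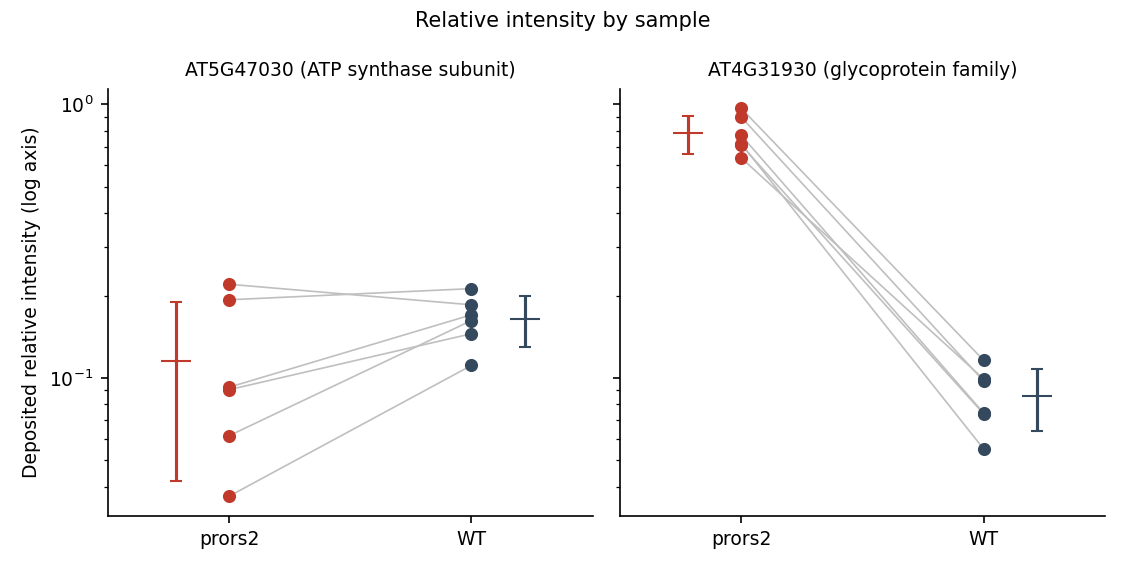
Deposited relative intensity (log axis) of both genes in prors2 (left of each panel) and WT samples. Points are samples, grey lines join samples of the same replicate number, and crosses with bars give the mean and SD of 6 samples. AT4G31930 runs from 0.637 to 0.967 in prors2 and from 0.0550 to 0.116 in WT, while AT5G47030 overlaps, from 0.0369 to 0.220 in prors2 and from 0.111 to 0.212 in WT.

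The position of a feature among all features of its own array does not change under any scaling that multiplies a whole array. By this measure both genes separated the genotypes. The share of all features that do so by position was not taken. On quantile-normalized values 16.2% of the 2654 features above 0 in all samples separated with prors2 lower, and 17.1% with prors2 higher. AT5G47030 was brighter than 23.4% ± 11.8 of the other features in prors2 and 51.6% ± 5.35 in WT (SD, n = 6 each). Its 6 prors2 positions ran from 11.1% to 39.1% and its WT positions from 43.7% to 59.9%, without overlap. AT4G31930 was brighter than 81.0% ± 3.59 of the features in prors2 and 33.3% ± 5.07 in WT. Its positions ran from 75.9% to 85.8% in prors2 and from 26.9% to 41.3% in WT. The ATP synthase feature therefore stood in the dimmer part of a prors2 array and near the middle of a WT array. The glycoprotein feature stood among the brighter features of a prors2 array and in the dimmer part of a WT array. Brightness also depends on the probe, so these positions do not compare the amounts of the transcripts of both genes.

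**Figure D2:**
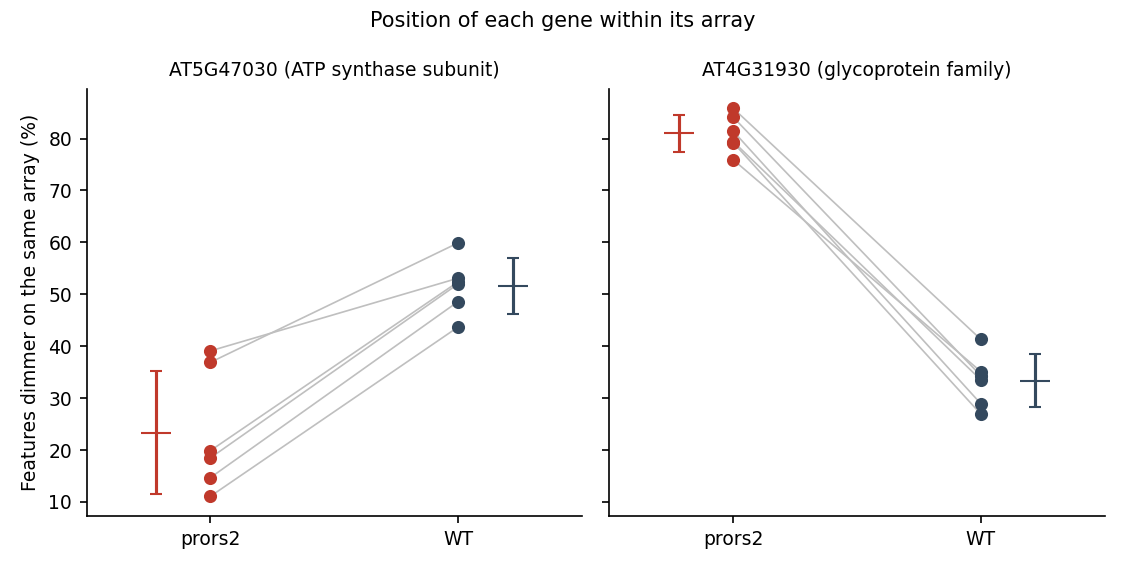
Share of features dimmer than each gene on the same array (percent), in prors2 and WT samples, with lines joining equal replicate numbers and crosses giving the mean and SD of 6 samples. Every AT5G47030 line is higher at WT and every AT4G31930 line is higher at prors2.

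After quantile normalization the log2 difference was -1.68 for AT5G47030 (SE 0.396), 3.21-fold lower in prors2. For AT4G31930 it was 2.49 (SE 0.163), 5.62-fold higher. Among the 3024 tested features AT5G47030 ranked 101st from the lowest difference, and AT4G31930 ranked 19th from the highest. The prors2 and WT values of each gene did not overlap on this scale, as was the case for 16.2% of the 2654 complete features in the lower direction and 17.1% in the higher direction. Both sizes depended on the scaling, that of AT5G47030 by the larger factor. AT5G47030 differed by -1.57 (SE 0.389) after median centring, by -0.81 (SE 0.386) with equal sums and by -0.74 (SE 0.391) with deposited values. AT4G31930 differed by 2.39 (SE 0.166), 3.14 (SE 0.176) and 3.22 (SE 0.182) on the same scalings. The direction of each gene was the same under all 4 scalings. Relative to the median feature AT5G47030 lay at -1.75 and AT4G31930 at 2.42 after quantile normalization. On the other scalings they lay at -1.50 and 2.45. Those scalings differ only by a factor for each array, so their equal values follow from the arithmetic.

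The ratio of both intensities within an array is also free of any factor that scales the whole array. The log2 ratio of AT4G31930 over AT5G47030 was 2.33, 3.06, 2.03, 3.37, 2.97 and 4.28 in prors2 replicates 1 to 6. In WT replicates 1 to 6 it was -0.87, -1.19, -0.93, -0.71, -0.98 and -1.01. It averaged 3.01 ± 0.798 in prors2 and -0.95 ± 0.161 in WT (SD, n = 6 each), a difference of 3.96 (SE 0.332). The smallest prors2 ratio stood well above the largest WT ratio. Both genes were chosen for opposite differences in these same samples, so this split is a description and adds no support. No share over other pairs of features is given beside it. A ratio shows that the 2 features changed unequally and not how the change is shared between them.

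By replicate number the difference of AT4G31930 was even and that of AT5G47030 was not. The deposited prors2 over WT ratio of AT4G31930 was 8.33, 10.4, 9.23, 6.42, 9.61 and 13.1 for numbers 1 to 6. For AT5G47030 it was 0.910, 0.543, 1.19, 0.379, 0.622 and 0.332. So AT4G31930 was higher in prors2 in 6 of 6 numbers, and AT5G47030 was lower in 5 of 6, with number 3 the exception. On quantile-normalized values AT5G47030 was lower in 6 of 6 numbers, with log2 differences of -0.97, -1.78, -0.56, -2.20, -1.80 and -2.78. AT4G31930 had 2.47, 2.74, 2.63, 2.02, 2.35 and 2.74 on that scale. Samples of neighbouring numbers may also resemble each other, for which no measure is given here. The differences were therefore also taken per set of neighbours, that is 1 with 2, 3 with 4 and 5 with 6. They were -1.37, -1.38 and -2.29 for AT5G47030 and 2.61, 2.32 and 2.54 for AT4G31930.

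**Figure D3:**
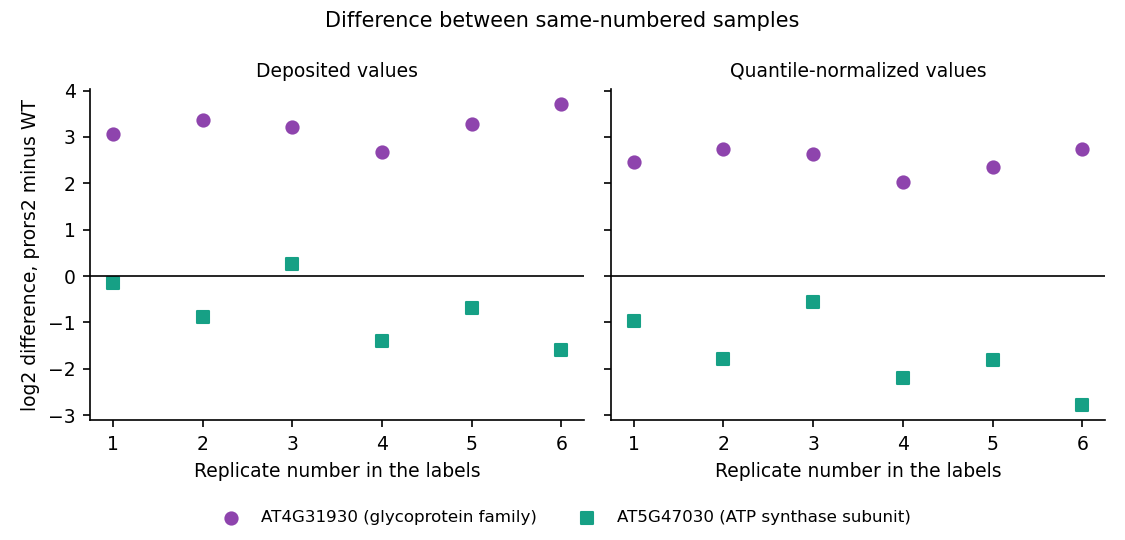
log2 difference (prors2 minus WT) between samples of the same replicate number, for AT4G31930 (circles) and AT5G47030 (squares), on the deposited and on the quantile-normalized values. AT4G31930 lies above 0 at every number, and AT5G47030 lies below 0 at every number except number 3 on the deposited values (0.25).

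The unevenness of AT5G47030 came from the prors2 samples. On quantile-normalized log2 values its SD was 1.01 over the 6 prors2 samples and 0.236 over the 6 WT samples. In prors2 that SD exceeded the SD of 94.2% of the 2654 complete features, whose median was 0.313. In WT it exceeded 41.5% of them, with a median of 0.272. Dim features vary more, so AT5G47030 was also set against the 300 complete features nearest to it in mean level over both genotypes together. Their median SD was 0.446 in prors2, and AT5G47030 exceeded 92.7% of them there. In WT their median SD was 0.431, and that of AT5G47030 lay below it. The mean of AT5G47030 was -3.88 in prors2 and -2.2 in WT. The 300 features were therefore not matched to its lower level in prors2, and dimness there is not fully accounted for. Replicates 1 and 3 were the 2 brightest prors2 samples for this gene and replicate 6 the dimmest, on an array where 262 features were listed at 0. AT4G31930 showed no such contrast, with an SD of 0.272 in prors2 and 0.286 in WT.

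The deviations of both genes within a genotype mostly ran the same way, although the genes differed between genotypes in opposite directions. Deviations from the genotype mean on quantile-normalized log2 values correlated with Pearson's r of 0.69 and Spearman's rho of 0.75 over 12 samples, and with r = 0.64 and rho = 0.73 on deposited values. Without the 2 samples farthest from the median of AT5G47030, prors2 replicates 3 and 6, r was 0.82 on quantile-normalized values, and within prors2 alone and WT alone it was 0.83 and 0.80. Same-numbered samples resemble each other, so these 12 are not independent and the relation was tested over the means of the 6 replicate numbers. There r was 0.91 on quantile-normalized values (two-sided exact permutation test, p = 0.0139) and 0.93 on deposited values (exact permutation p = 0.0194), with an exact permutation p of 0.0194 for each after Benjamini-Hochberg adjustment over the 2 scales. Spearman's rho, at 0.83 and 0.77, did not pass (exact permutation p = 0.0583 and 0.103, adjusted p = 0.103 for both). Without the 2 numbers farthest from the median of AT5G47030, r over the other 4 was 0.92 and 0.89. Neighbouring numbers may also resemble each other, so even the 6 numbers may not be fully independent and these p-values may be too small. The test was not planned. Its adjustment covers the 2 scales alone, not the choice between r and rho or between 12 samples and 6 numbers. Within the sets of neighbours, both genes moved the same way between the first and second sample in 5 of 6 cases on quantile-normalized and 4 of 6 on deposited values, while the sizes of those 6 differences correlated with r = 0.14 and 0.04. The labels do not say what the samples of a number share.

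**Figure D4:**
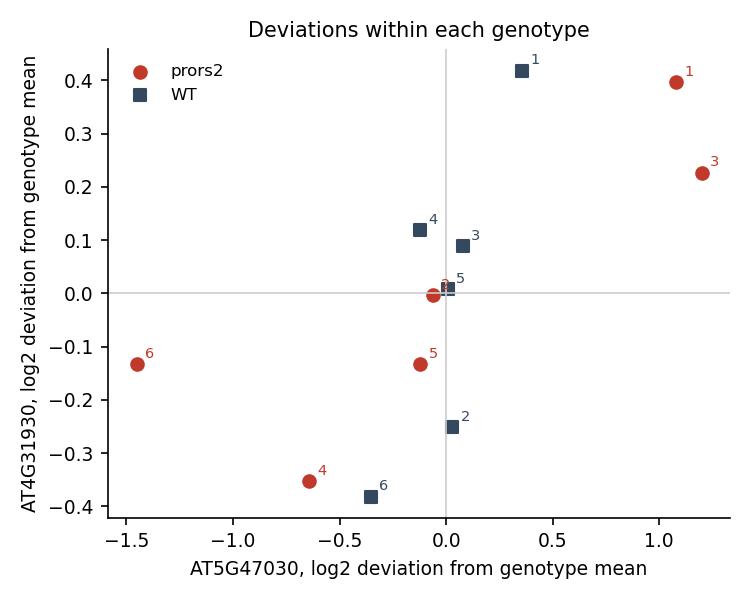
log2 deviation from the genotype mean of AT5G47030 (horizontal) and AT4G31930 (vertical), on quantile-normalized values, in prors2 (circles) and WT samples (squares), each labelled with its replicate number. Replicate 1 is high for both genes and replicate 6 below the mean for both in each genotype.

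The single-gene features with a value in all samples were ranked by the correlation of such deviations, 509 per gene, with a median r of -0.04 for AT5G47030 and -0.03 for AT4G31930. These are descriptions over 12 arrays that the genes share, and have no p. AT5G47030 was most like AT1G70200 (r = 0.85), AT4G24930 (r = 0.79) and AT3G51930 (r = 0.72), and AT4G31930 ranked 7th in that list. AT1G70200 was also called lower in prors2, at -1.24 (SE 0.213, limma adjusted p = 4.91e-04), and under all 4 scalings. AT4G24930 was called lower at -0.46 (SE 0.121, limma adjusted p = 0.00755), but lay at 0.24 with deposited values and 0.16 with equal sums. AT3G51930 differed by 0.30 (SE 0.214, limma adjusted p = 0.281), and was called higher with deposited values (1.17, limma adjusted p = 4.12e-04) and equal sums (1.10, limma adjusted p = 4.88e-04).

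AT4G31930 was most like AT5G53620 (r = 0.78), AT2G25640 (r = 0.70) and ETFQO (AT2G43400, r = 0.69), and AT5G47030 ranked 4th. ETFQO is the electron-transfer flavoprotein:ubiquinone oxidoreductase, a mitochondrial enzyme that passes electrons from amino acid and lipid breakdown to ubiquinone. Its difference was -0.08 (SE 0.246, limma adjusted p = 0.829), against 0.88 with the deposited values and 0.81 with equal sums, where it was called higher (limma adjusted p = 0.0141 and 0.0191). The difference of AT5G53620 was -0.67 (SE 0.262, limma adjusted p = 0.0536), against 0.31 with the deposited values. AT5G53620 was called lower with zeros kept by an offset, zeros set to the lowest positive value, complete features only or array weights, and without prors2 replicate 1 or WT replicate 6 (limma adjusted p from 0.0146 to 0.0465). AT2G25640 was called higher at 0.37 (SE 0.124, limma adjusted p = 0.0256). It did not pass with median centring (0.22) and, at adjusted p from 0.0501 to 0.0523, without prors2 replicate 1 or 6 or WT replicate 5 or 6. Of these 6 genes 2 were called lower, 1 higher and 3 neither on quantile-normalized values with zeros as missing. Across all tested features the same fit called 22.4% lower and 24.8% higher, so these counts are no result about the 6 genes.

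By size of difference AT5G47030 ranked 16th from the lowest of 606 tested single-gene features. The gene just beyond it, AT1G74070, lay at -1.69 (SE 0.876) and was not called (limma adjusted p = 0.137), but passed in the limma fit blocked on replicate number (adjusted p = 0.0143). The gene just short of it, AT3G56290, lay at -1.67 (SE 0.489) and was called (limma adjusted p = 0.0143), but not with the deposited values (-0.76), with equal sums (-0.84) or with zeros set to the lowest positive value (-2.64, limma adjusted p = 0.122). AT4G31930 ranked 3rd from the highest. Above it AT3G11960 lay at 2.73 (SE 1.46, limma adjusted p = 0.160), and below it AT4G35660 at 2.38 (SE 0.151, limma adjusted p = 2.11e-07). After median centring AT4G35660 lay at 1.37, still called (limma adjusted p = 1.72e-05). Among all 3024 tested features its rank from the highest went from 24 to 176 with that change of scaling. That of AT4G31930 went from 19 to 23. AT3G11960 was very dim in WT, with a mean log2 value of -7.49. Its difference was 0.33 with zeros kept by an offset and 4.85 with deposited values. Only AT4G35660 of these 4 neighbours had an SE as small as that of AT4G31930.

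Few of the listed nuclear genes for mitochondrial proteins had a single-gene feature, and the list does not hold every such gene (ETFQO is not in it). Of 235 listed loci, covering the ATP synthases of both organelles, the glycoprotein family, respiratory complexes, alternative respiration, carriers, the tricarboxylic acid cycle and protein import, 5 had a single-gene feature, the 2 genes above included. No other subunit of the mitochondrial ATP synthase (18 loci listed) and none of the plastid enzyme (4 loci) was among them. Of the other 3 genes 2 were tested, of which 1 was called higher and 0 lower in limma, with 0 lower at an unadjusted p below 0.05 and 0 called lower under every other fit run. Over the whole array 24.8% of tested features were called higher and 22.4% lower, and 19.8% higher after median centring. The median log2 difference of these 2 genes was 0.35, against 0.07 over all tested features.

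AT5G02050, the second measured member of the glycoprotein family list of 10 loci, was called higher in prors2 by a much smaller difference than that of AT4G31930, which was not itself set against it in a test. Its deposited intensities were 0.408, 0.450, 0.391, 0.494, 0.527 and 0.463 in prors2 replicates 1 to 6. In WT replicates 1 to 6 they were 0.198, 0.194, 0.224, 0.199, 0.250 and 0.169. Every prors2 sample lay above every WT sample on this scale, as was the case for 39.9% of the 2654 complete features. After quantile normalization 4 of 6 prors2 samples of AT5G02050 did. Its log2 difference was 0.42 (SE 0.124, limma adjusted p = 0.0144), and it was not past the threshold after median centring, at 0.33 (limma adjusted p = 0.0542). Relative to the median feature AT5G02050 lay at 0.35 after quantile normalization, where AT4G31930 lay at 2.42. On the other scalings, which differ only by a factor for each array, AT5G02050 lay at 0.39 and AT4G31930 at 2.45.

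AT5G47890, listed as a subunit of respiratory complex I, which feeds electrons from NADH into the chain that drives the ATP synthase, was not called in either direction, and its difference was above 0. Its deposited intensities were 0.203, 0.0834, 0.187, 0.155, 0.288 and 0.212 in prors2 replicates 1 to 6. In WT replicates 1 to 6 they were 0.122, 0.0842, 0.104, 0.0247, 0.0967 and 0.0694. In prors2 5 of 6 samples lay above every WT sample on this scale, but 1 of 6 after quantile normalization. Its log2 difference was 0.29 (SE 0.413, limma adjusted p = 0.612), and -0.06 without WT replicate 4, its dimmest sample. With deposited values and with equal sums it was called higher, at 1.23 (limma adjusted p = 0.0146) and 1.16 (limma adjusted p = 0.0233), scalings on which 57.8% and 55.0% of all features were called higher. AT4G02580, also listed for complex I, was at 0 in every sample except prors2 replicate 5 (0.0015) and WT replicate 5 (0.00502), and was not tested.

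**Figure D5:**
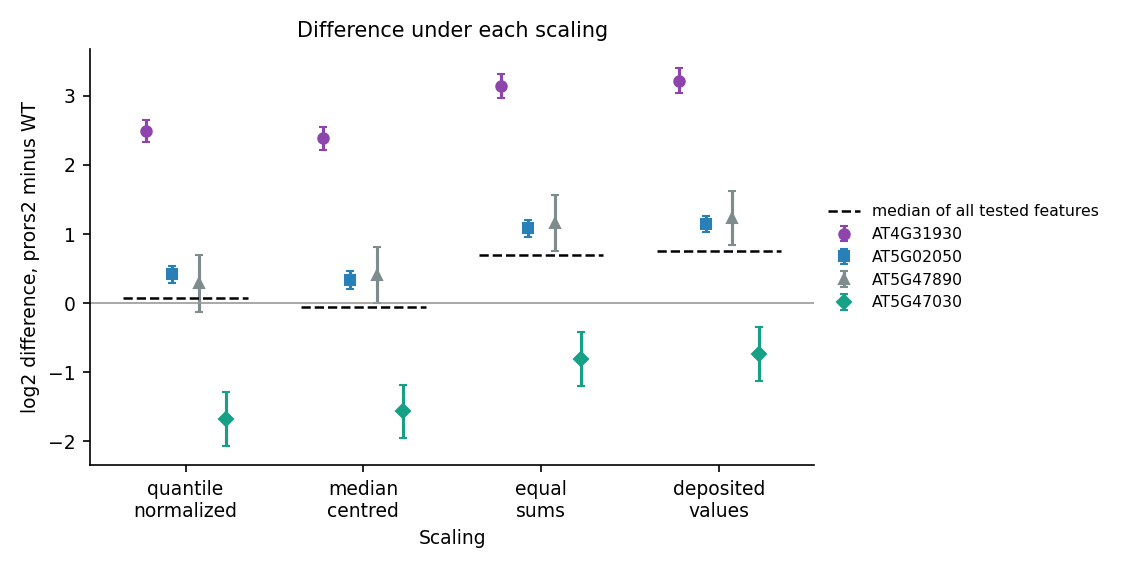
log2 difference (prors2 minus WT) of the 4 tested mitochondrial genes under each scaling, with bars for the SE of the limma fit. Dashed lines give the median over all 3024 tested features. AT4G31930 lies above that median under all 4 scalings, AT5G47030 below it, and AT5G02050 and AT5G47890 within 0.47 above it. Deposited values, equal sums and median centring differ only by a factor for each array, so the distances from the median are the same under them.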

How the data were processed

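The authors deposited 1 table of relative intensities, linear, with zeros and an upper limit of 100, as the deposited values show; the sources used here do not give the background correction, scaling, array type or software. It held 3439 features and 0 columns of other samples. Because medians and sums of the arrays spread beyond a 5% limit, values were put on a log2 scale, zeros treated as missing, and quantile-normalized. Features with at least 4 of 6 values above 0 in each genotype (3024) went into limma 3.58.1 (lmFit, eBayes; R 4.3.3) with genotype as the one term, two-sided, Benjamini-Hochberg over all tested features, threshold 0.05; this names the tool behind each adjusted p. SEs of both genes come from the same fit. A simulation used the groups and the feature spreads of this comparison (3024 features, 200 given a log2 shift). There the fit called 24% of shifts of 0.5 and 64% of shifts of 1, and 3 of its 91 calls were false. The simulated noise was independent between samples, and in the data 1427 features were called. These shares therefore need not hold for the data. The number of arrays limits the precision.

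Genes were named from the platform table where a feature had 1 gene (692 features; 870 had several and 1877 were not listed); 691 of the 692 matched the TAIR10.1 gene table. Coordinates and sequences are not used here, since the sources name no build for the array. Besides both genes, the text names every measured gene of the mitochondrial lists, the 3 most similar features per gene and the neighbours in rank. Members, lists and tests were chosen with earlier results of these data known.

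Same-numbered samples correlated between 0.212 and 0.399 in their deviations from the genotype means over 2654 features, and 12 of 12 were closest to their own number. The numbers therefore pair the samples, by the data and not by any statement in the labels. The main fit leaves this pairing out, so its SEs and adjusted p-values are unpaired. It called 1427 features, and the fit with numbers as a block 1605. Blocked SEs of both genes are not given here. Alternatives were the replicate block, the sets of neighbouring numbers as a block, other scalings, zeros kept by an offset of 0.0296 or set to the lowest positive value, complete features only, the dimmest 25% left out, trend and robust estimation, array weights, and each sample left out. The quantile-normalized ratio of both genes was added after the data were seen. The test of the relation between both genes was also not in the plan.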

Additional observations from a re-analysis of the deposited data

Results flagged for a closer look

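AT5G47890 in WT replicate 4 was far below the other 5 WT samples, at -4.99 on the quantile-normalized log2 scale. AT5G02050 in WT replicate 5 stood above the other 5 WT samples, at -1.53 on that scale. In both the gap to the nearest sample exceeded the 95% critical value for 6 samples on that scale. Neither was past it on the other of the 2 scales looked at. These 2 flags came from 16 cases looked at (4 genes, 2 groups, 2 scales), and chance gives about 1 in 20. For AT5G47030 and AT4G31930 0 cases were past that value.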

How the results depend on the processing

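AT5G47030 stayed lower and AT4G31930 higher in prors2 under every alternative that gave a value; AT5G47030 has none without the dimmest 25%, which leaves it out. AT5G47030 moved from -1.68 to -0.74 (deposited values), -0.81 (equal sums) and -2.52 (zeros set to the lowest positive value). AT4G31930 moved from 2.49 to 3.22, 3.14 and, with zeros kept by an offset, 2.15. The within-array log2 ratio difference of 3.96 was 4.93 with zeros set to the lowest positive value and 4.17 on quantile-normalized values. Leaving out 1 sample gave -1.93 to -1.40 for AT5G47030, 2.38 to 2.59 for AT4G31930 and 3.70 to 4.15 for the ratio. Features called were 751 higher and 676 lower; deposited values gave 1747 and 269, equal sums 1664 and 298, and median centring 600 and 881. Of the 2 other mitochondrial genes tested, 2 were called higher with deposited values or equal sums and 0 after median centring. Signs turned for AT4G24930 (0.24 deposited, 0.16 equal sums), AT5G53620 (0.31 and 0.24), ETFQO (0.88, 0.81, 0.05 after median centring, and -0.20 to 0.07 with 1 sample left out) and AT5G47890 (-0.06 to 0.51 with 1 sample left out, the lowest without WT replicate 4). With replicate numbers as a block 1605 features were called, and of the named genes only AT1G74070 changed its call. Each number has 1 sample per genotype, and neither AT5G47030 nor AT4G31930 had a sample at 0. Their differences of -1.68 and 2.49 under this block therefore follow from the arithmetic. Only their SEs could change, and these are not given. The same differences came with neighbouring numbers as a block, complete features only, and trend and robust estimation. These settings do not test the size or direction of either difference. Causes were not tested. With deposited values and with equal sums the median tested feature was higher in prors2, by a log2 difference of 0.76 and 0.69. Depth is unknown for arrays, and the sources used here do not say how far each feature stood above background.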

Other observations

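AT5G47030 was brighter in the odd-numbered than in the even-numbered sample of each set of neighbouring numbers in both genotypes, in 6 of 6 pairs on the deposited and on the quantile-normalized values. Of the 2654 complete features 98 (3.69%) did so on the deposited values and 117 (4.41%) after quantile normalization, while 122 (4.60%) and 88 (3.32%) were brighter in the even-numbered sample of all 6 pairs. AT4G31930 was brighter in the odd-numbered sample in 4 pairs on the deposited values and in 5 after quantile normalization.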
